A study of Mus musculus with 2 samples.

Results

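The mitochondrial carrier family, named Slc25 in the mouse, is a set of membrane proteins that move metabolites, nucleotides, cofactors and ions into and out of mitochondria. The genes examined are the protein-coding genes whose symbol starts with Slc25a, except Slc25a37 and Slc25a38, in GENCODE vM21. They were 45 of the 21938 protein-coding genes on the chromosomes, spread over 19 chromosomes, and the rule uses no measured value. CTCF binding had been mapped by chromatin immunoprecipitation with sequencing (ChIP-seq) in livers of B6NCrl mouse embryos aged 14.5 days. The livers had been pulverised and pooled over several dissections and both sexes. The 2 libraries carry biological replicate numbers but name 1 biosample, so the spread between them may be technical. The samples used here hold 1 condition, and their labels give no genotype or treatment.

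Carriers of this family share a fold of repeated membrane-spanning modules, and most sit in the inner mitochondrial membrane. They supply ATP synthase with ADP and phosphate, move the acids of the citric acid cycle, and bring in amino acids for urea synthesis and acylcarnitines for fatty acid oxidation, both of which are liver functions. CTCF is a zinc finger protein that binds a long DNA motif and stops cohesin at the anchors of chromatin loops. It also occupies many gene starts.

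Peaks are those of the authors' optimal list, which was derived from both replicates by the irreproducible discovery rate and is a single value with no replicates of its own. A listed peak need not be found in each replicate. Within 100 bp of the summit, 2 promoter and 2 in-gene peaks of the family had no replicate 1 peak, and 1 in-gene peak had no replicate 2 peak. The deposited signal of a peak has no stated scale. To put both replicates on 1 scale, each replicate's nearest peak to an optimal summit was taken, at most 100 bp away, and its signal was divided by the median over the 50909 strongest peaks in the same replicate. In this relative signal, 1 is a typical strong peak. The liver is a mixture of cell types, and binding in more cells cannot be told apart from stronger binding per cell. The core CTCF motif was found at 70.8% of all optimal summits and in 3.0% of windows moved by 1 kb, while peaks hold no expression and so did not allow the tissue label to be checked.

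The sequences below are the motif sites at the 5 strongest promoter peaks with a match. A match to the core motif was allowed at most 2 mismatches, which limits how far these sites can depart from it. Each is read 5′ to 3′ on the strand of the motif, with the matched bases in capitals and 8 genomic bases on each side, from the RefSeq genome of build GRCm38 (mm10).
Slc25a45, chr19:5878183-5878212, minus strand, 1 mismatch: gaacgtggCCACGAGGTGGCAGtcccaggc
Slc25a5, chrX:36796381-36796410, plus strand, 1 mismatch: gcgcactgCCTCTAGGGGGCGCtcgcgggc
Slc25a28, chr19:43665633-43665662, minus strand, 0 mismatches: tatttgtaCCACTAGATGGCGCtccctccc
Slc25a10, chr11:120492591-120492620, minus strand, 2 mismatches: cagtcctcACAGTAGGTGGTGCtaagcgcc
Slc25a1, chr16:17928851-17928880, plus strand, 2 mismatches: caaagccgCCTGGAGGGGGCAGccctagcc

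The strongest promoter peak of the family had no such site. It lay at Slc25a28, and the 50 bases on each side of its summit are printed on the strand of the gene. The stretch nearest to the core motif is in capitals. It has 4 mismatches when read on the opposite strand, as the reverse complement of the printed letters. The window lies upstream of Slc25a28 and overlaps an exon of the noncoding transcript AC138790.1.
Slc25a28, chr19:43675413-43675513, minus strand: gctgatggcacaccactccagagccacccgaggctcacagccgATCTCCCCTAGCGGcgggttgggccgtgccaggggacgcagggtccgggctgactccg

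Peaks stood within 1 kb of an annotated start at 18 of the 45 genes, or 40.0% (Wilson 95% interval 27.0 to 54.5), against 35.2% of all protein-coding genes. The share over all genes lies within that interval. In the conservative list, 20 genes had one, or 44.4%, against 34.4%. At 4 genes, or 8.89%, there were 2 or more such peaks, against 9.35%. A further 19 genes had a peak in the gene body alone, and 8 had neither. In all, 37 genes, or 82.2% (Wilson 95% interval 68.7 to 90.7), held a promoter or in-gene peak, against 57.5% of all protein-coding genes. The median length of the carrier genes was 21.5 kb against 17.4 kb over all protein-coding genes, and they had a median of 4 annotated starts against 3. The GC content within 500 bp of the outer start had a median of 58.1%, against 54.7%. The part of length, number of starts and base composition in these shares was not tested.

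The genes were grouped by the substance they transport, with few genes in each group and no test between groups. Over all protein-coding genes, 35.2% had a promoter peak, and 41.2% had an in-gene peak, with or without a promoter peak. Of the 4 carriers of di- and tricarboxylic acids, 3 had a promoter peak, and of the 15 carriers of nucleotides and cofactors, 6 did. Amino acid and choline carriers had one at 3 of 10 genes, and 6 more had in-gene peaks alone. None of the 3 uncoupling-like carriers Slc25a14, Slc25a27 and Slc25a30 had a promoter peak in the optimal list, and all 3 had peaks in the gene body. In the conservative list Slc25a30 did have a promoter peak. Slc25a3, the phosphate carrier that feeds ATP synthase, had neither. The single carnitine carrier Slc25a20 had a promoter peak, and the outer membrane member Slc25a46 had an in-gene peak. Among genes whose substrate was counted as not established, 3 of 7 had a promoter peak.

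**Figure D1:**
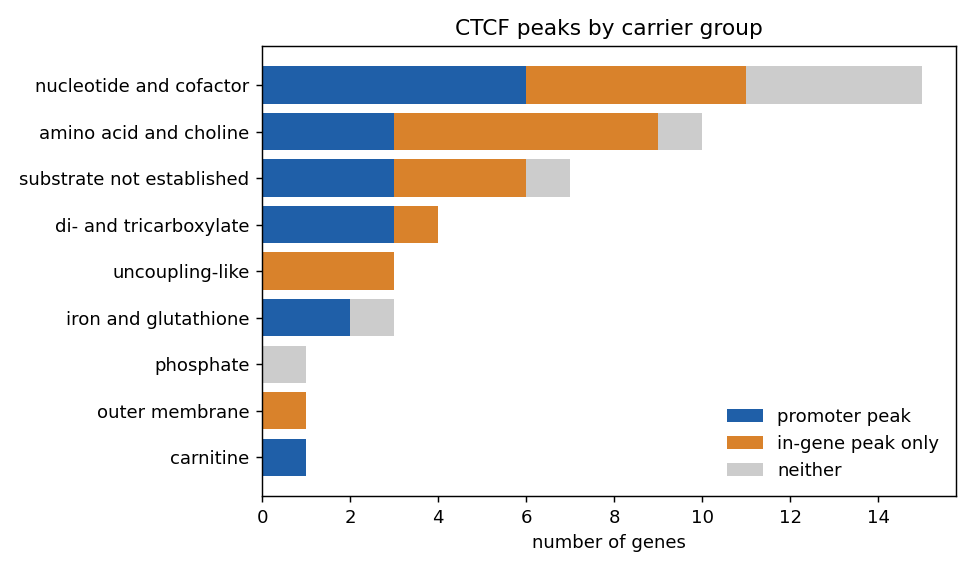
Number of carrier genes (horizontal axis) in each substrate group (vertical axis), coloured by whether an optimal CTCF peak lay within 1 kb of a start, in the gene body alone, or in neither place. The 15 nucleotide and cofactor carriers divide into 6, 5 and 4 genes, and all 3 uncoupling-like carriers have in-gene peaks alone.

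Slc25a28 encodes mitoferrin 2, an importer of iron into mitochondria, and had the highest promoter signal of the family. Its main peak had its summit 582 bp upstream of the start and a signal of 333. It spans positions 43675325 to 43675601 of chromosome 19. The relative signal was 5.76 in replicate 1 and 4.21 in replicate 2, or 4.99 ± 1.09 (SD, n = 2), and the peak ranked 3743 among the 50888 optimal peaks. Another peak of the same gene, at 43665516 to 43665754, lay 331 bp past an internal start in an exon of a noncoding transcript, with a signal of 215. It carries the site without a mismatch printed above, and its relative signals were 2.89 and 3.45. A weak peak with a signal of 24.8 lay 460 bp before another internal start. The peak of higher signal at this gene thus lacked a motif match, and the next one had a match free of mismatches.

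Iron and glutathione carriers otherwise had weak or no promoter peaks. Slc25a39, a glutathione importer, had a peak in its 5' UTR (chromosome 11, 102407654 to 102407969). The signal was 26.7, and the relative signals were 0.559 and 0.262. A neighbouring peak within the same gene had a signal of 22.7. Both lay among the strongest peaks in replicate 1 but not in replicate 2. The paralog Slc25a40 had neither kind of peak, and the nearest optimal summit lay 46.1 kb from a start, the longest such distance in the family. In replicate 2 a peak of relative signal 0.425 lay within 1 kb of a Slc25a40 start, and in replicate 1 the highest there was 0.120.

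Carriers of di- and tricarboxylic acids held a promoter peak of above-median signal at Slc25a1 and Slc25a10. At Slc25a1, which exports citrate for fatty acid synthesis, the summit lay 646 bp upstream of the start on chromosome 16, with a signal of 175 and relative signals of 3.34 and 2.04, or 2.69 ± 0.918 (SD, n = 2). Slc25a10, which exchanges malate and succinate for phosphate, had its summit in an intron 679 bp past a start, with a signal of 202 and relative signals of 3.67 and 2.28. Replicate 1 was higher at both genes. Slc25a11, the oxoglutarate carrier of the malate-aspartate shuttle, had a peak 31 bp past a start, within 1 kb of a start of the neighbouring gene Rnf167, with a signal of 60.0 and relative signals of 1.38 and 0.574. No match lay at its summit. Slc25a21, a carrier of oxoadipate, had in-gene peaks alone.

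Slc25a5 encodes the ADP/ATP carrier of proliferating cells, and it was the only gene of its set of paralogs with an optimal peak near a start. Its summit lay in an intron on chromosome X, 761 bp past a start, with a signal of 233 and relative signals of 4.17 and 2.75, or 3.46 ± 1.00 (SD, n = 2). Slc25a4, the form of heart and muscle, had its nearest optimal summit 8.46 kb from a start, and the highest pooled-list peak within 1 kb had a signal of 8.08, at rank 121842. Slc25a31, the form of the testis, had its nearest one 31.7 kb away. The only replicate peak near its start was in replicate 2, with a relative signal of 0.127.

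Among the carriers of ATP-Mg and phosphate, Slc25a23 had a peak 806 bp upstream of its gene, with a signal of 226 (chromosome 17, 57060556 to 57060796). Its relative signals were 4.33 and 2.59, or 3.46 ± 1.24 (SD, n = 2), with no motif match. Peaks with a match at internal starts of Slc25a23 had signals of 64.0 and 41.9. The paralogs Slc25a24, Slc25a25 and Slc25a41 had no promoter peak, although Slc25a41 held an intronic peak with a signal of 98.5 and relative signals of 1.59 and 1.25. Slc25a25 had in-gene peaks with signals of 19.9 and 13.0, and neither was in the conservative list. Slc25a24 had neither kind of peak.

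Other nucleotide and cofactor carriers had weaker promoter peaks. Slc25a51, which imports NAD, had a peak 750 bp upstream of its gene with a signal of 57.3 and relative signals of 0.953 and 0.732. Slc25a36, a pyrimidine nucleotide carrier, had one 226 bp upstream of its gene with a signal of 33.6 and relative signals of 0.655 and 0.286. Its paralog Slc25a33 had no promoter peak and an intronic peak with a signal of 199 and relative signals of 3.84 and 2.17. Slc25a42, which imports coenzyme A, had a promoter peak with a signal of 21.6 and an intronic peak with a signal of 218. The highest signals of Slc25a33 and Slc25a42 thus lay in the gene body and not at a start.

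Amino acid carriers were led by Slc25a22, a glutamate carrier, whose peak lay 76 bp before a start, in an annotated 5' UTR (chromosome 7, 141437599 to 141437830). It had a signal of 241 and relative signals of 4.07 and 3.02, or 3.55 ± 0.744 (SD, n = 2), with no motif match. Its paralog Slc25a18 had no promoter peak and an intronic one with a signal of 59.6. Slc25a12 and Slc25a13 encode the aspartate/glutamate carriers, of which the latter, citrin, is the liver form. The peak of Slc25a12 had a signal of 79.7 and relative signals of 1.07 and 1.33, and that of Slc25a13 lay in an intron, 36924 bp from the nearest start, with a signal of 143 and relative signals of 2.39 and 1.86. Slc25a15, the ornithine carrier of the urea cycle, had a peak in its 3' UTR with a signal of 124, and its nearest optimal peak, with a signal of 23.5, lay 1102 bp before a start.

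Slc25a29 and Slc25a47 start 163 bp apart on opposite strands of chromosome 12, the former a carrier of basic amino acids and the latter a carrier found mainly in liver. They shared 1 promoter peak, at 108836072 to 108836387, which was the weakest promoter peak of the family at a signal of 12.2. Replicate 2 had a peak there of relative signal 0.234, and replicate 1 had none within 100 bp, although one of 0.390 lay elsewhere within 1 kb of their starts. Slc25a47 also had an intronic peak with a signal of 40.6. Their relative Slc25a45, by contrast, had the second highest promoter signal, 279, at a summit in its 5' UTR on chromosome 19, 343 bp past a start. Its relative signals were 4.93 and 3.39, or 4.16 ± 1.09 (SD, n = 2). Slc25a48 of the same set, a choline carrier, had an intronic peak alone, with a signal of 17.2. Slc25a35 had a promoter peak with a signal of 60.7, at 1.45 in replicate 1 and 0.426 in replicate 2, while its paralog Slc25a34 had none in the optimal list.

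Paralog sets were not counted over all protein-coding genes, so the count here has no share beside it and is no result about paralogs. Of the 10 sets of paralogs with more than 1 gene here, 8 held both genes with and genes without a promoter peak. At the 18 genes with one, the signal of the strongest promoter peak ran from 12.2 to 333 with a median of 87.8, against a median of 70.2 over the 7727 protein-coding genes that had one. It was above the median of the optimal list at 10 of 18 genes, or 55.6%, against 51.0% of those 7727. Both replicates held it among their strongest peaks at 15 of 18 genes, or 83.3%, against 77.2%.

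**Figure D2:**
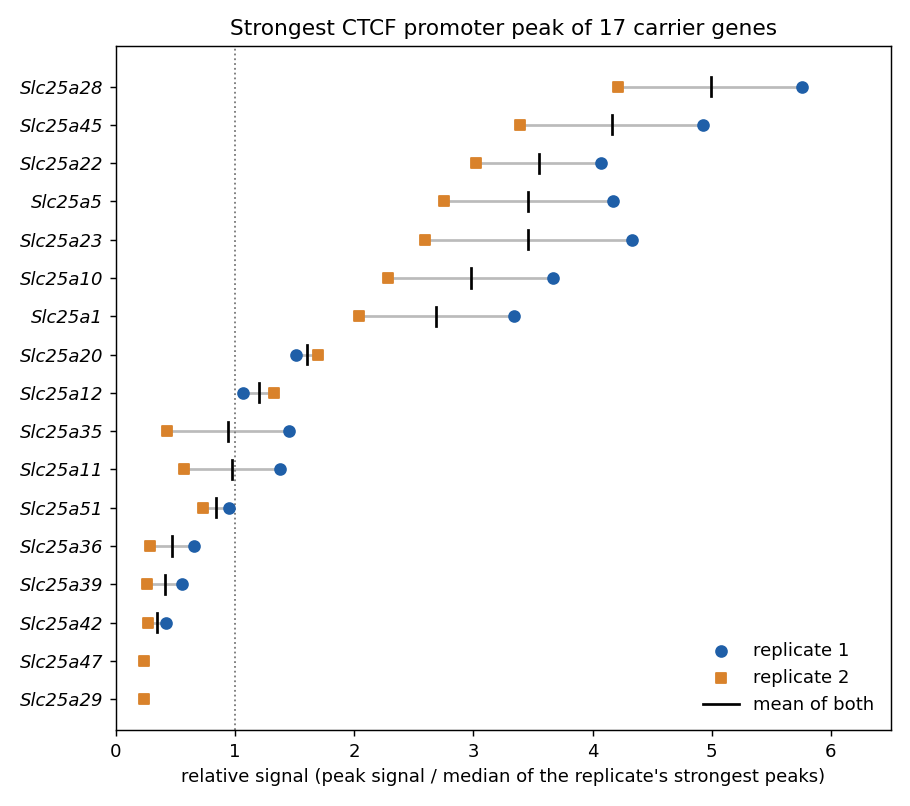
Relative signal (horizontal axis) of the strongest promoter peak of 17 carrier genes (vertical axis, ordered by signal in the optimal list), with replicate 1 as circles, replicate 2 as squares and the mean as a bar. The 7 genes at the top, from Slc25a28 to Slc25a1, are higher in replicate 1 than in replicate 2, and Slc25a29 and Slc25a47 share 1 peak that has no replicate 1 value.

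The strongest promoter summit of each gene had a median distance of 372 bp from the nearest start, from 31 to 854 bp, against 207 bp over those 7727 genes. It was upstream of that start at 10 of 18 genes, or 55.6%, against 59.6%. Just inside the window of 1 kb stood a weaker peak of Slc25a23 at 957 bp and the peak of Slc25a20 at 854 bp, with signals of 64.0 and 104. Just outside stood those of Slc25a15 at 1102 bp and Slc25a25 at 1165 bp, with signals of 23.5 and 17.3.

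At Slc25a12 and Slc25a20 the promoter peak lay near an internal start, far from the outer end of the gene. The summit lay 23320 bp into the gene at Slc25a12 and 11262 bp at Slc25a20, the carnitine-acylcarnitine carrier. At Slc25a20 the signal was 104 and the relative signals of the replicates were 1.51 and 1.70. Slc25a20 also had an intronic peak with a signal of 134 and a motif match with 1 mismatch. Counting only the outer start, 15 of 45 genes had a promoter peak.

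**Figure D3:**
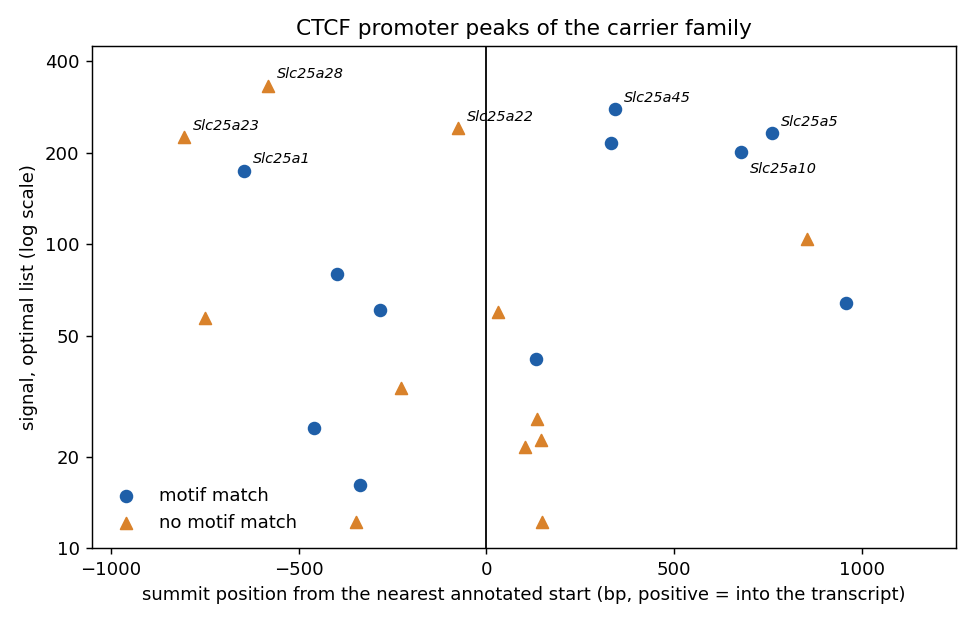
Signal in the optimal list (vertical axis, log scale) against the position of the summit from the nearest annotated start in bp (horizontal axis) for the promoter peaks of 17 carrier genes, as circles with a motif match and triangles without. The peak shared by Slc25a29 and Slc25a47 is drawn once for each gene, and the 7 genes with the highest signals, labelled by name, include Slc25a28, Slc25a22 and Slc25a23 without a match.

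A motif match was found at the strongest promoter peak of 6 of the 18 genes, or 33.3% (Wilson 95% interval 16.3 to 56.3), against 48.0% of the 7727 genes. Those 6 were Slc25a1, Slc25a5, Slc25a10, Slc25a12, Slc25a35 and Slc25a45. The motif pointed along the gene at Slc25a5 and Slc25a12 and against it at the other 4, so 2 of 6 were on the gene's strand, or 33.3%, against 54.1%. Over all 23 distinct promoter peaks, 11 had a match, or 47.8%, against 46.1% of the promoter peaks of all protein-coding genes. In-gene peaks had one at 36 of 43, or 83.7%, against 74.2%. No match says only that the letters of the core motif are not in the window, within 2 mismatches.

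In-gene peaks outside the promoter window were present at 24 of 45 genes, or 53.3% (Wilson 95% interval 39.1 to 67.1), against 41.2% of all protein-coding genes. The counts are given by gene length, since a longer gene can hold more peaks. Of the carrier genes under 10 kb, 1 of 13 had one, against 10.7% of all protein-coding genes of that length. From 10 to 30 kb there were 11 of 16, or 68.8% (Wilson 95% interval 44.4 to 85.8), against 40.0% (2599 of 6502 genes). From 30 to 100 kb there were 9 of 13, or 69.2%, against 66.5%, and all 3 carrier genes over 100 kb had one, against 87.5%. Introns held 38 of the 43 in-gene peaks, which was not counted over all protein-coding genes and so is no result about the family. The strongest in-gene peak of each gene had a median signal of 84.8, from 17.0 to 320, against 126 over the 9048 protein-coding genes that had one.

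The sites at the 3 strongest in-gene peaks with a match, and the only in-gene site without a mismatch, are printed the same way as above, to set them beside the promoter sites.
Slc25a30, chr14:75768162-75768191, minus strand, 1 mismatch: gattctcaCCACTAGGGGGAGCgctattca
Slc25a17, chr15:81355543-81355572, plus strand, 2 mismatches: tacggaggCCAGAAGAGGGCATtggatact
Slc25a42, chr8:70200573-70200602, plus strand, 1 mismatch: cacacataACAGCAGATGGCAGtgttgtta
Slc25a27, chr17:43650218-43650247, minus strand, 0 mismatches: tgcatctgCCACCAGGGGGCAGaatacaat

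Slc25a30, an uncoupling-like carrier, had the highest in-gene signal of the family. Its intronic peak (chromosome 14, 75768035 to 75768305) had a signal of 320 and relative signals of 5.03 and 4.38, or 4.71 ± 0.459 (SD, n = 2). A further peak, in its 3' UTR, had a signal of 217 and relative signals of 2.52 and 3.96. Both had a match on the strand of the gene. The related genes Slc25a14 and Slc25a27 had weaker in-gene peaks, at most 119 and 69.4 in signal. The site of Slc25a27 without a mismatch thus had relative signals of 0.960 and 1.08, close to a typical strong peak and well under those of Slc25a30.

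Slc25a21, the longest gene of the family at 485 kb, held 5 in-gene peaks. The strongest lay 2598 bp past a start, with a signal of 300 and relative signals of 4.26 and 4.73, and had no match within 2 mismatches. The next had a signal of 205 and relative signals of 2.48 and 3.75. The third, with a signal of 171, was at 0.951 in replicate 1 and 4.05 in replicate 2, so the replicates disagreed there. Slc25a17, a peroxisomal carrier of cofactors and so an exception among these mitochondrial proteins, had an intronic peak with a signal of 255 and relative signals of 2.60 and 5.05. At Slc25a42 the intronic peak was at 3.27 and 3.31, or 3.29 ± 0.0336 (SD, n = 2).

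**Figure D4:**
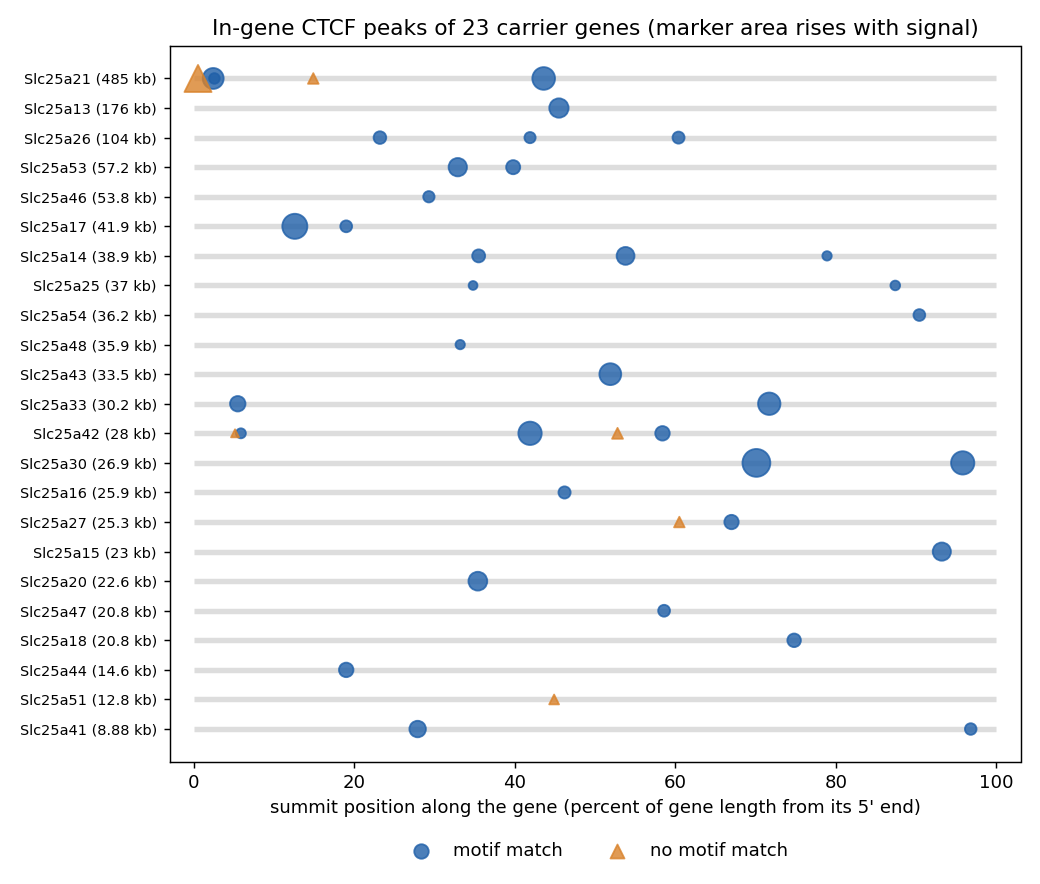
Position of each in-gene summit as a percentage of gene length from the 5' end (horizontal axis) for 23 carrier genes (vertical axis, longest at the top), with marker area rising with signal, circles for a motif match and triangles for none. The largest markers are those of Slc25a30, Slc25a21 and Slc25a17, with signals of 320, 300 and 255.

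Both replicates supported 49 of the 66 distinct peaks of the family, or 74.2% (Wilson 95% interval 62.6 to 83.3), against 76.8% of all optimal peaks. The conservative list held 57 of them, or 86.4%, against 86.4%. Promoter peaks were supported at 19 of 23, or 82.6%, against 70.4%, and in-gene peaks at 30 of 43, or 69.8%, against 76.6%. One in-gene peak of Slc25a42, with a signal of 6.72, ranked 174452 in the pooled list and was in neither replicate's strongest peaks.

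The replicates were not balanced in the same way at starts and in gene bodies. Relative signal was higher in replicate 1 at 16 of the 21 promoter peaks with a value in both, or 76.2%, against 84.5% over all protein-coding genes. The median log2 ratio of replicate 1 over replicate 2 was 0.60, against 0.63. At in-gene peaks replicate 1 was higher at 17 of 40, or 42.5%, against 60.8%, with a median log2 ratio of -0.11, against 0.23. Among the strongest promoter peaks of each gene, the largest log2 ratios were 1.77 at Slc25a35, 1.27 at Slc25a11 and 1.20 at Slc25a36. Among the smallest were -0.31 at Slc25a12 and -0.17 at Slc25a20, whose peaks lay near internal starts alone.

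**Figure D5:**
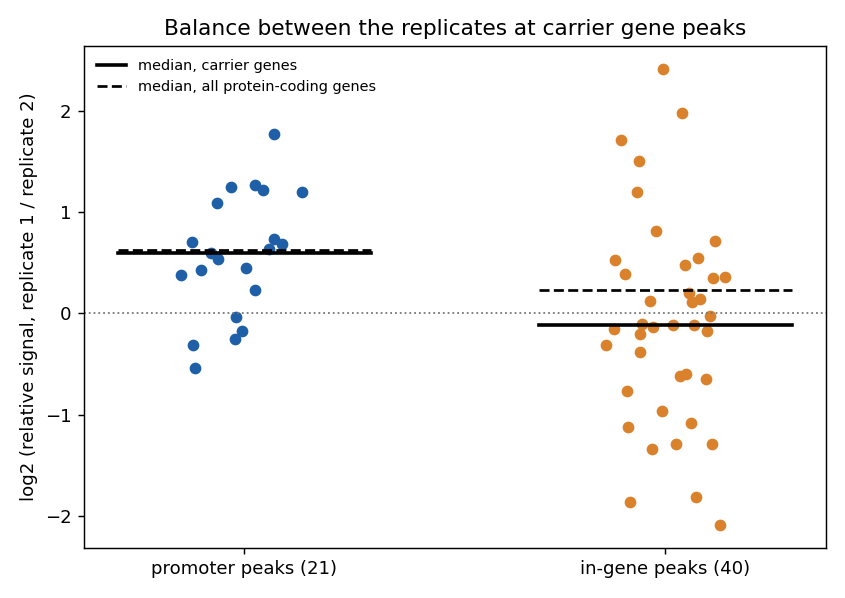
Log2 ratio of relative signal in replicate 1 over replicate 2 (vertical axis) at 21 promoter and 40 in-gene peaks of the carrier genes (horizontal axis), each point 1 peak, with solid lines for their medians and dashed lines for the medians over all protein-coding genes. The median lies at 0.60 for promoter peaks and at -0.11 for in-gene peaks.

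The choice of replicate changed which genes had a promoter peak. Among each replicate's strongest peaks, 22 carrier genes had one in replicate 1, or 48.9%, against 39.4% of all protein-coding genes, and 18 in replicate 2, against 31.7%. Both replicates gave one at 15 genes. The overlap between the replicates was not counted over all protein-coding genes, so it is no result about these carriers. Replicate 1 alone gave one at Slc25a3, Slc25a25, Slc25a29, Slc25a30, Slc25a39, Slc25a46 and Slc25a47, and replicate 2 alone at Slc25a21, Slc25a34 and Slc25a40. At Slc25a30 the highest promoter peak was at 0.963 in replicate 1 and 0.231 in replicate 2, and at Slc25a3 it was at 0.538 and 0.119.

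The 27 genes without an optimal promoter peak were also looked up in the full lists. The full pooled list, which holds many weak peaks, had one within 1 kb of a start at 20 of them, or 74.1%, against 55.2% of all protein-coding genes without an optimal promoter peak. The list of replicate 1 had one at 21, or 77.8%, against 56.4%, and that of replicate 2 at 13, or 48.1%, against 45.5%. The highest such pooled signals were 35.0 at Slc25a30, 20.9 at Slc25a21 and 18.3 at Slc25a40. The first is above the 33.6 of the optimal promoter peak of Slc25a36, and the conservative list had promoter peaks at Slc25a30 and Slc25a34, so these values are not all weaker than those of peaks in the optimal list. Slc25a32, which carries folate or flavin cofactors, had 11.7. Slc25a43 and Slc25a54 had no peak near a start in any of these lists.

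The orientation of the motifs on either side of each carrier gene was also read. For each gene the nearest optimal peak with a motif match was taken on each side, more than 1 kb beyond the ends of the gene. The motifs pointed to each other across the gene at 8 of 45 carrier genes, or 17.8%, against 28.2% of the 21627 protein-coding genes that had a flanking peak on both sides. They pointed away from each other at 12, or 26.7%, against 24.7%, and in the same direction at 25, or 55.6%, against 47.1%. The span between flanking motif peaks had a median of 67.2 kb, against 107 kb, and ran from 16.8 kb at Slc25a35 to 844 kb at Slc25a40. The 8 convergent spans were those of Slc25a3, Slc25a11, Slc25a15, Slc25a22, Slc25a29, Slc25a35, Slc25a42 and Slc25a47, and those of Slc25a29 and Slc25a47 share a flanking peak.

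A list of 30 related genes was set beside the family. Of the 5 with the same fold under other symbols, Ucp1, Ucp2 and Mtch2 had a promoter peak, with signals of 28.2, 22.6 and 34.6. Of 15 other transport genes of mitochondrial membranes, 12 did, led by Vdac1, a channel of the outer membrane, with a signal of 416 and relative signals of 7.43 and 5.13. Sfxn3, of the sideroflexin family, followed with 349, and Mpc2, a subunit of the pyruvate carrier, had 231. Of 10 genes for the import of carriers, 4 did, and Timm22, the core of the translocase that inserts carriers into the inner membrane, had a signal of 505 and relative signals of 8.78 and 6.58, above every gene of the family. In all 19 of 30 had a promoter peak, or 63.3%, against the 35.2% of all protein-coding genes given above. The list was chosen with earlier results of these data known. The part of gene length, number of starts and base composition in this share was not tested.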

How the data were processed

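CTCF peaks of 2 libraries were placed on the genes of the mitochondrial carrier family. Per the deposited text files, the authors made narrowPeak lists on mouse build mm10 from alignments with a control, 1 per replicate and 1 for both together, each of 300000 peaks, and derived from them the optimal (50909 peaks) and conservative (49129 peaks) lists by the irreproducible discovery rate. Neither the peak caller nor the read depth was found: they are not given in the sources used here. Each peak carries a deposited signal, the caller's value on a scale that is not stated, which was therefore compared only within a list. The last column is the summit offset.

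Gene models were those of GENCODE vM21, and sequence came from the RefSeq copy of the same assembly, GRCm38. Peaks on other sequences than chromosomes, 21 in the optimal list, were left out. A promoter peak had its summit within 1 kb of any annotated start of the gene, and an in-gene peak lay between the gene's ends and beyond that window. The core CTCF motif was sought on either strand, up to 50 bp from a summit, and 2 mismatches were allowed. A replicate supported a peak when 1 of its 50909 strongest peaks had a summit within 100 bp.

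No test was run, because the series holds 1 group. Some of the shares are given with Wilson 95% intervals, which cover counting error only. Members were named when among the 10 highest promoter signals, the 5 highest in-gene signals, or the 3 largest or 3 smallest replicate ratios. Members of a set of paralogs of which some had a promoter peak were named too. Values in both replicates are not printed for all of these genes. The members and lists were chosen with earlier results of these data known. The functions were tested on simulated data. Analyses used Python 3.11.15, pandas 2.3.3 and pysam 0.24.0. The alternatives were the conservative list, each replicate alone, other windows, 1 start per gene, stronger or motif-matched peaks only, other motif settings, other summit distances and scaling by the mean. One member gene counts in the totals but is not reported here by name or drawn in the plots that name genes, and the site of Slc25a12 is not printed.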

Additional observations from a re-analysis of the deposited data

How the results depend on the processing

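The 18 genes with a promoter peak became 20 with the conservative list (34.4% of all protein-coding genes), which added Slc25a30 and Slc25a34 and lost none. The count was 12 of 45 with a window of 500 bp (28.7%) and 15 of 45 with 1 start per gene (27.7%). It was 30 with a window of 5 kb (54.1% of all protein-coding genes), 10 with peaks above the median signal (18.0%) and 9 with motif-matched peaks only (18.3%). With replicate 2 alone it was 18 (31.7%), and with replicate 1 alone 22 (39.4%). The 24 genes with an in-gene peak became 14 with peaks above the median signal (28.2%). They were 22 with replicate 1 alone (40.4%) and 23 with replicate 2 alone (41.7%). The 6 genes with a motif match at the strongest promoter peak became 3 with at most 1 mismatch (21.6%) and 12 with at most 3 (78.0%). There were 7 with replicate 1 alone (42.6%), where 22 genes had a promoter peak. With replicate 2 alone, where 18 genes had one, there were 8 (52.1%). The median promoter signal of 87.8 became 50.9 with a window of 500 bp, where it was 61.4 over all protein-coding genes. It was 70.2 with the conservative list (73.0), 60.7 with 1 start per gene (59.0) and 130 with a window of 5 kb (115). The genes that the window of 500 bp drops include Slc25a1, Slc25a5, Slc25a10, Slc25a20 and Slc25a51. Scaling by the mean in place of the median multiplied the 25 relative signals by 0.538 to 0.585. Of the 49 peaks supported by both replicates, the count was 48 or 49 with a closer or wider summit distance and 61 at any rank. No paired analysis was possible because the series holds 1 group. Read depth is unknown, and 2 libraries of 1 biosample limit the precision of every value.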

Other observations

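Carrier genes with starts within 100 kb of each other made up 4 pairs. Between the starts of Slc25a43 and Slc25a5 on chromosome X, 52.0 kb apart, lay 1 optimal peak with a signal of 188, in an intron of Slc25a43, with relative signals of 1.82 and 3.85. Between Slc25a54 and Slc25a24 lay 1 with a signal of 39.7, and between Slc25a23 and Slc25a41 lay 2, with signals of 64.0 and 41.9. Slc25a29 and Slc25a47 had none between them.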
